A study of Homo sapiens with 2 samples.

Results

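Mature miR-31-5p, miR-31-3p, miR-203a-3p, miR-944 and miR-184 are small RNAs known from squamous epithelium and its carcinomas. These 5 miRNAs were looked up by exact name among the 1213 entries of a small RNA comparison of UM-SCC6, and each of them had an entry. UM-SCC6 is an established human line of oral squamous cell carcinoma, and its parental culture gave the first library. The other library came from UM-SCC6-M, a population recovered at the invasion front of UM-SCC6 in a microfluidic chip and expanded in a dish, with 3 rounds of this selection in all. The labels ascribe to it high invasion and some mesenchymal traits, and name no other treatment for either culture. Each culture is represented by 1 library, which leaves every difference without replicates and without a test between conditions. UM-SCC6-M was harvested as a population, per the labels' protocols, and is not described as a clone.

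A miRNA guides a silencing complex to messenger RNAs that pair with its seed, which is bases 2 to 8 of the mature strand, and lowers their output. miR-203 is known as a brake on p63 that accompanies the exit of keratinocytes from the basal layer, and miR-31 as a promoter of keratinocyte proliferation that is often abundant in oral carcinoma. miR-944 is encoded inside the gene of p63, the factor that maintains basal squamous cells, and miR-184 is known from the cornea and from carcinoma of the tongue.

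The mature sequences, as given by RefSeq for GRCh38.p14, are shown because the seed sets the targets of each miRNA and because no seed is shared among them. Seeds are in capitals, and 4 of the 5 names were matched in that table.
miR-31-5p: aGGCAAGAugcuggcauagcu
miR-203a-3p: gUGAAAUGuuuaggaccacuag
miR-944: aAAUUAUUguacaucggaugag
miR-184: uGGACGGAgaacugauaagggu
These 4 sequences are 21 or 22 bases long, so levels were compared between them without a correction for length. The 4 seeds were distinct, and none was found in any other of the 2370 mature names of that table. In GRCh38, MIR31 lies on chromosome 9 (21512115 to 21512185, minus strand), within an intron of the long non-coding RNA gene MIR31HG. MIR944 lies on chromosome 3 (189829922 to 189830009, plus strand), within an intron of TP63. MIR184 lies on chromosome 15 (79209788 to 79209871, plus strand), opposite an intron of the antisense gene ANKRD34C-AS1. MIR203A lies on chromosome 14 (104117405 to 104117514, plus strand), where the only overlapping gene in GENCODE release 29 was MIR203B on the other strand. ASPG, 1824 bases away, was the nearest protein-coding gene.

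Levels are given as normalized reads, the authors' scaled values, together with the whole reads recovered from them. The UM-SCC6-M library held 7699490 recovered reads, the parental one 8182958. Brackets give exact 95% intervals, which cover counting error alone, since reads copied by PCR are not independent molecules. The 5 miRNAs covered a wide range of levels. miR-31-5p stood at about 100 normalized reads, miR-31-3p near 10, miR-203a-3p at under 3, and miR-944 and miR-184 below the listing limit of 1 in both libraries. Summed over the 5, the level was 111.2 normalized reads in the parental library and 104.1 in UM-SCC6-M, of which miR-31-5p made up 88.5% and 90.1%. In both libraries miR-31-5p was highest and miR-31-3p was next, while the order among miRNAs listed at 0 is not settled. The counting intervals of miR-31-5p, miR-31-3p and miR-203a-3p did not overlap within either library. Adapter ligation favours some sequences over others, and its part in the order of levels was not tested.

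**Figure D1:**
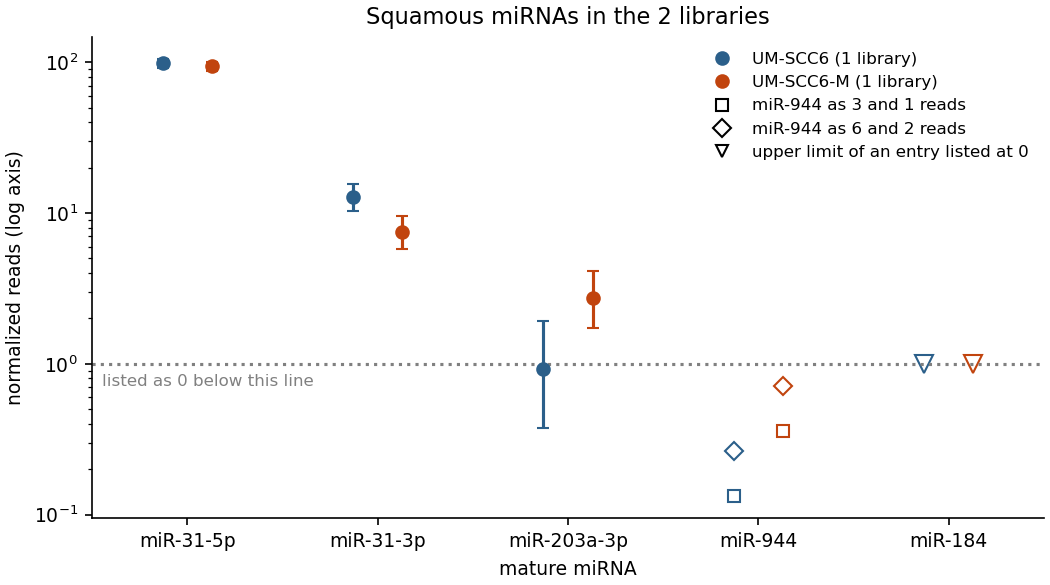
Normalized reads (log axis) of the 5 squamous miRNAs in the UM-SCC6 library (blue) and the UM-SCC6-M library (red). Bars are exact 95% Poisson intervals, squares and diamonds are the possible read pairs of miR-944, and triangles mark the limit of 1 below which values were listed as 0. miR-31-5p lies at 98.5 and 93.9 normalized reads, far above the other miRNAs.

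Under the authors' scaling, the levels of miR-31-5p in the 2 libraries differed by less than counting error. It had 98.5 normalized reads in the parental library, from 741 reads, and 93.9 in the UM-SCC6-M library, from 786 reads. The log2 ratio of UM-SCC6-M over parental was -0.07 (-0.22 to 0.08). The interval reaches from 1.16-fold lower to 1.06-fold higher, so a 2-fold difference between these libraries lies outside it. As a share of these summed reads, miR-31-5p made up 90.6 rpm (reads per 1000000 recovered reads) in the parental library (84.2 to 97.3). It made up 102 rpm in the UM-SCC6-M library (95.1 to 109). On this scale it was the UM-SCC6-M library that had the higher value, because scaling to total reads moves every log2 ratio up by 0.24. The ratio then became 0.17 (0.03 to 0.32), so no direction is given for miR-31-5p.

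In rank, miR-31-5p was entry 145 of the 511 listed above 0 in the parental library and entry 141 of 506 in the UM-SCC6-M library. It was thus well detected but far from dominant. miR-21-5p, the most abundant miRNA of both libraries, exceeded it 4835-fold in the parental library and 4504-fold in the UM-SCC6-M library. miR-200b-3p, an epithelial miRNA that represses ZEB1 and ZEB2, exceeded it 130-fold and 186-fold. The entries nearest to miR-31-5p in level over the 2 libraries were miR-320b, miR-10a-3p and miR-502-3p. Their distances were 0.16, 0.17 and 0.22 on the log2 scale, among 458 other entries listed in both libraries.

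Only miR-31-5p reached 50 normalized reads in its higher library, the floor used for a call of at least 2-fold. It was not called (0 of 1), whereas 20.1% of all 179 entries at the floor were called in one direction or the other. By direction, 7.26% were higher and 12.8% lower in UM-SCC6-M. A single member gives no basis for comparison with these shares.

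**Figure D2:**
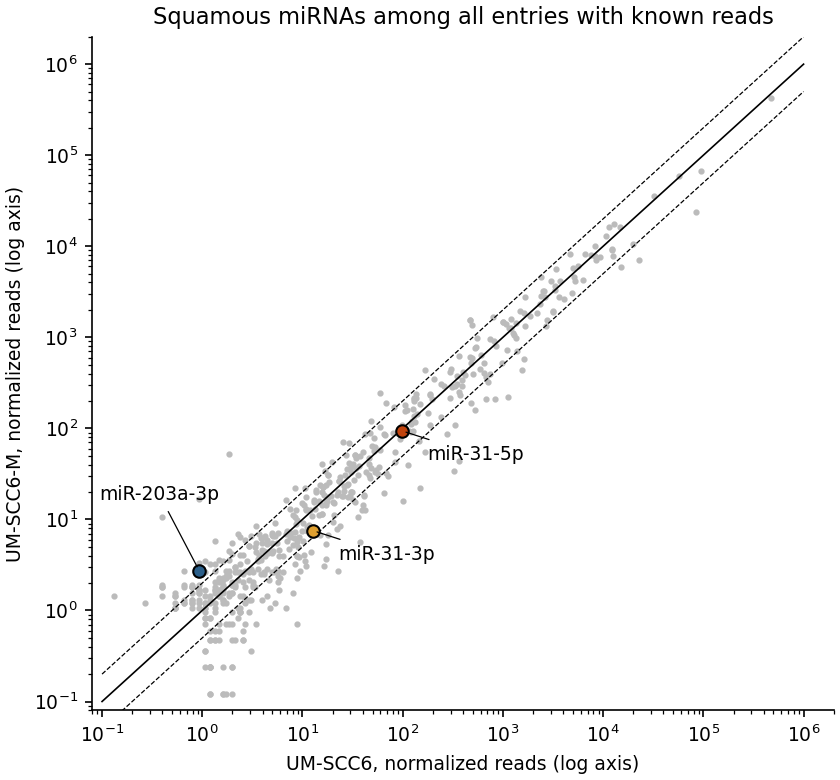
Normalized reads in the UM-SCC6-M library against the parental UM-SCC6 library (both log axes) for the 555 entries with recovered reads in both, in grey, with values under 1 rebuilt from recovered reads. The solid line marks equal levels and the dashed lines 2-fold; miR-31-5p lies next to the line of equality, miR-31-3p between the lines and miR-203a-3p above the upper one, among entries of few reads.

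miR-31-3p, the other arm of the same hairpin and usually the one that is discarded, had the lower value in UM-SCC6-M. It had 12.8 normalized reads in the parental library, from 96 reads, and 7.52 in the UM-SCC6-M library, from 63 reads. This was 1.69-fold lower (1.22 to 2.37), a log2 ratio of -0.76 (-1.24 to -0.29). The interval lay below 0 under the authors' scaling and also under scaling to total reads, where the ratio was -0.52 and the upper bound -0.05. In the authors' deposited table the same miRNA had a log2 fold change of -0.76, a p-value of 0.424 and a q-value of 0.991. The fold was under 2. Of the 289 entries at 10 or more normalized reads in the higher library, 22.8% were at least 2-fold apart. By direction, 7.27% were higher and 15.6% lower. miR-139-5p, miR-1283 and miR-769-3p were nearest to miR-31-3p in level, at distances of 0.15, 0.19 and 0.21.

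The hairpin of miR-31 is shown with its 5p product in capitals, since the balance of its arms was compared between the libraries.
MIR31 hairpin: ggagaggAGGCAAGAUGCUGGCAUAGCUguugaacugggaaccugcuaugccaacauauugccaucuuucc
Of the reads from both arms, the 3p arm made up 11.5% in the parental library (Clopper-Pearson interval 9.39 to 13.8) and 7.42% in the UM-SCC6-M library (5.75 to 9.39). The ratio of 5p to 3p normalized reads was 7.72 in the parental library and 12.5 in the UM-SCC6-M library. This balance was 1.61-fold further toward the 5p arm in UM-SCC6-M (exact conditional interval 1.14 to 2.29), a log2 difference of 0.69 that does not depend on the scaling between libraries. Shifts of this size were common. For the floors used here, each arm was taken in its higher library, so it could lie under the floor in the other. miR-31-3p was such an arm, at 12.8 normalized reads in the parental library and 7.52 in UM-SCC6-M. Of the 30 hairpins with both arms at 50 or more normalized reads, 30% differed by at least 2-fold, and miR-31 was not among these 30 because of its 3p arm. Of the 70 hairpins with both arms at 10 or more normalized reads, 28.6% differed by at least 2-fold, which miR-31 did not, and 33 of the other 69 differed by as much as miR-31 or more. Over all 70, miR-31 included, the median absolute log2 difference was 0.67, next to the 0.69 of miR-31. The floor of 10 was chosen after the values were seen. Not all of these hairpins are independent. miR-423 and miR-3184, from opposite strands of the same bases and with nearly the same reads, both count among the 30 and the 70. Both arms of miR-3158, among the 70, are reverse complements over 20 bases. They had 153 and 154 reads in UM-SCC6-M and 306 and 310 in the parental library. These hairpins were kept in the shares and in the median.

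**Figure D3:**
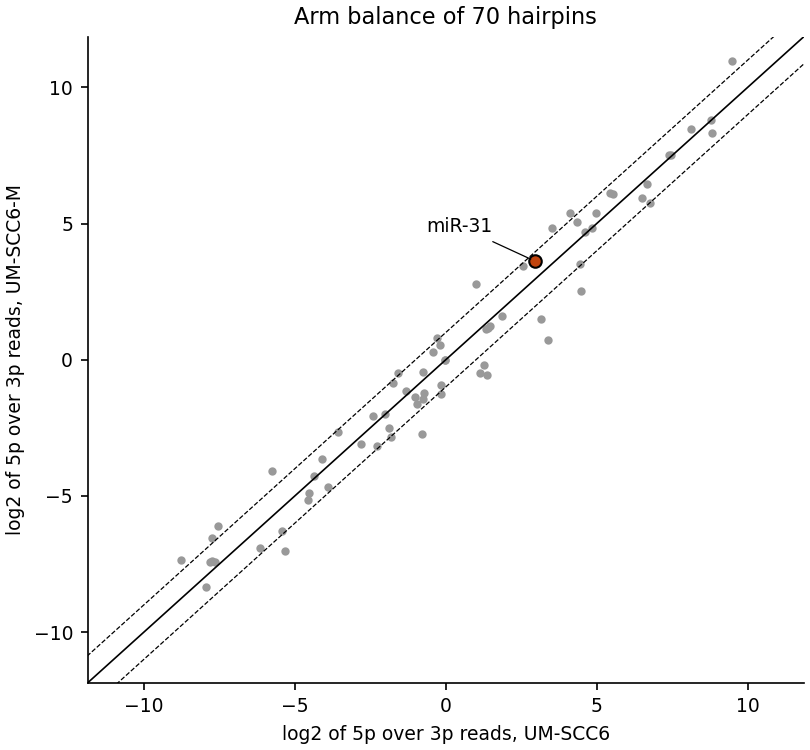
Log2 of 5p over 3p reads in the UM-SCC6-M library against the same in the parental UM-SCC6 library, for 70 hairpins. Both arms of each had 10 or more normalized reads in the higher library of that arm. The solid line marks equal balance and the dashed lines a 2-fold difference; miR-31 (red) lies above the line of equality by 0.69, inside the dashed lines.

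miR-203a-3p was close to the limit of detection in both libraries. The UM-SCC6-M library had 2.75 normalized reads, from 23 reads, and the parental library was listed at 0. The log2 fold change of 1.56 in the authors' deposited table gives 7 parental reads, which is under the listing limit. In shares, these were 2.99 rpm in UM-SCC6-M (1.89 to 4.48) and 0.855 in the parental library (0.344 to 1.76). With 0.5 reads added to each library the log2 ratio was 1.49 (0.29 to 3.03), or 2.82-fold higher in UM-SCC6-M with an interval of 1.23 to 8.15. The authors' deposited table gives it a p-value of 0.263 and a q-value of 0.878. Without any floor, 30.8% of the 558 entries with known reads were at least 2-fold apart and 10.8% were higher by that much in UM-SCC6-M. A log2 ratio of 1.49 or more was found for 20 of the 558, with miR-203a-3p and miR-203b-5p, which had the same reads, both included. Entries whose reads were listed under another name as well were counted under each. miR-31-5p had 106 times as many reads in the parental library and 34.2 times as many in UM-SCC6-M.

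The reads of miR-203a-3p were listed a second time, under miR-203b-5p, with 23 and 7 reads again. The product of MIR203B is set under miR-203a-3p, each with its seed in capitals, because the pair comes from opposite strands of the same bases.
miR-203a-3p: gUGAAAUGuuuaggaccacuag
miR-203b-5p: uAGUGGUCcuaaacauuucaca
miR-203a-3p lies at chr14:104117469-104117490 on the plus strand and miR-203b-5p at chr14:104117468-104117489 on the minus strand, in GRCh38.p14. Over the 21 bases that they share, each is the reverse complement of the other. Their seeds differ, so the listed value does not tell which seed was present, and the strand of the reads was not tested. Among 31 such pairs of names in the table with at least 15 shared bases, reads were known for 18, and 7 of these had equal reads in both libraries. In 13 of the 18 the reads agreed within 10%. The other arms, miR-203a-5p and miR-203b-3p, were not analysed here.

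miR-944 was listed at 0 normalized reads in both libraries. Its log2 fold change of 1.43 in the authors' deposited table is met by 2 pairs of whole reads under the listing limit, 3 in UM-SCC6-M against 1 in the parental library, or 6 against 2. The exact interval of the log2 ratio was -2.21 to 7.14 for the first pair and -1.05 to 4.77 for the second, and both include 0. The larger pair amounts to 0.779 rpm in UM-SCC6-M and 0.244 in the parental library, with upper bounds of 1.70 and 0.883 rpm, and no difference was detectable at this depth. The mRNA of TP63, its host gene, was not measured in these libraries.

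miR-184 was listed at 0 in both libraries and had no deposited fold change, as 1 of 356 such entries, so its reads could not be recovered. The listing limit of 1 normalized read allows at most 8 reads in UM-SCC6-M and 7 in the parental library. These limits amount to 1.04 and 0.855 rpm. By the rule used for entries listed in 1 library, a missing fold change stands for 0 reads. miR-184 would then have had 0 reads in at least 1 library. No fold is given for miR-184.

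**Figure D4:**
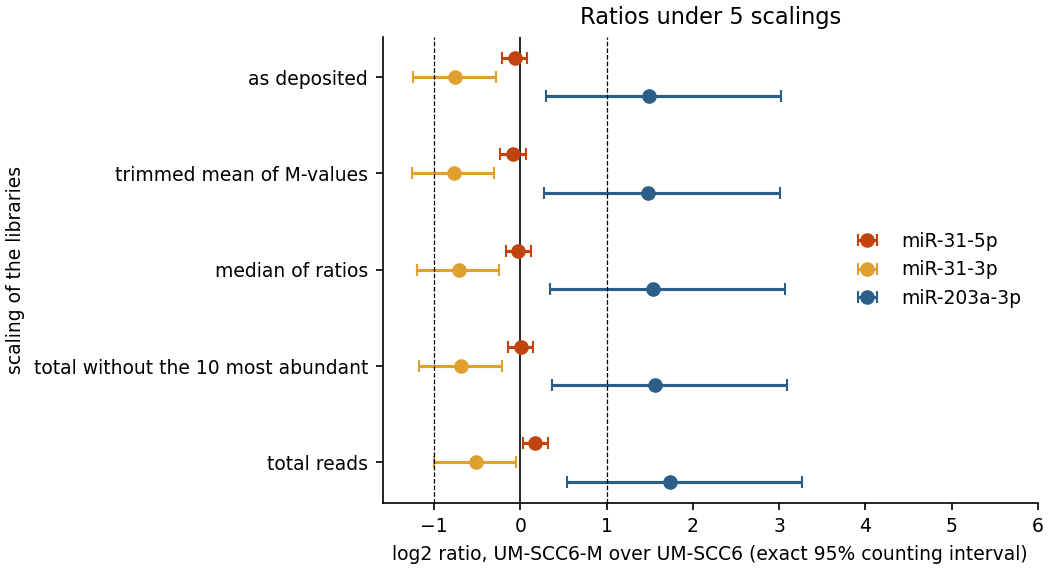
Log2 ratio of UM-SCC6-M over UM-SCC6 for miR-31-5p, miR-31-3p and miR-203a-3p under 5 scalings of the libraries, with exact 95% counting intervals; dashed lines mark 2-fold. The interval of miR-31-5p includes 0 in all but the scaling to total reads, that of miR-31-3p lies below 0 and that of miR-203a-3p above 0 throughout.

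The label of the cells was set against the miRNA markers of several cell types. Of the squamous markers, miR-31-5p and miR-31-3p held nearly all of the summed level, 111.2 normalized reads in the parental library and 104.1 in UM-SCC6-M. miR-944 and miR-184 were listed at 0 in both libraries and miR-203a-3p in the parental one, and miR-205-5p was not analysed here. The epithelial markers went both ways. miR-200b-3p stood at 17481 normalized reads in UM-SCC6-M and 12823 in the parental library, while miR-200a-3p stood at 1344 and 2674, and miR-429 at 793 and 845. miR-200c-3p had 15 reads against 20, miR-375 was listed at 0 in both libraries, and miR-141-3p was not analysed here.

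The 6 stromal markers summed to 113.1 normalized reads in UM-SCC6-M and 62.9 in the parental library. The 3 of them at 10 or more normalized reads were all past 2-fold, miR-199b-5p and miR-199a-3p 2.07-fold higher and miR-143-3p 2.53-fold lower. The last reached this floor in the parental library alone, at 10.4 normalized reads against 4.06 in UM-SCC6-M. Among all 289 entries at the same floor, 22.8% passed 2-fold, with 7.27% higher and 15.6% lower. These 3 members went both ways and are too few for a comparison with those shares. For miR-127-3p, miR-145-5p and miR-214-3p both listed values were 0. The endothelial markers miR-126-3p and miR-126-5p summed to 550 and 986 normalized reads, with miR-126-3p 1.86-fold lower and miR-126-5p 1.71-fold higher in UM-SCC6-M. Of the 3 blood markers with an entry, miR-451a and miR-142-3p had listed values of 0, and miR-486-5p stood at 17.9 and 24.6. The part of other cells in the values of the squamous miRNAs was not tested.

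miRNAs known from the same setting were then counted in 4 overlapping lists. Each has too few members at the floor of 50 normalized reads for a comparison with the share of all entries, which is printed beside it. The keratinocyte differentiation list, miRNAs reported to act when keratinocytes mature or stop dividing, had 10 of its 11 members in the table. None of the 7 that reached 50 normalized reads was at least 2-fold apart, beside 20.1% of all 179 entries at that floor. miR-24-3p was its most abundant member, at 1934 normalized reads in UM-SCC6-M and 3164 in the parental library, 1.64-fold lower. miR-181a-5p was 1.88-fold lower and miR-181b-5p 1.31-fold lower, whereas miR-23b-3p was 1.26-fold higher. The median log2 ratio of the 9 members at 10 or more normalized reads was -0.39, against -0.07 for all 289 entries at that floor. The only one of these 9 past 2-fold was miR-138-5p, 2.79-fold lower on 121 reads against 304, and it is named after its values were seen. Of all 289 entries, 22.8% were past 2-fold, 7.27% higher and 15.6% lower.

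The p63-linked list, to which miR-944 and miR-203a-3p belong, had 9 of 12 members in the table. Of these, 4 reached 50 normalized reads and 0 were at least 2-fold apart, beside the same 20.1% of all entries. miR-574-3p, one of these 4, was 1.89-fold higher, at 88.2 against 46.8 normalized reads, and miR-34a-5p, a target of p53, was 1.56-fold lower. The median over 6 members at 10 or more normalized reads was -0.51. All 6 also belong to the keratinocyte differentiation list, so this median adds no new values to the one given there. Past 2-fold among them was again miR-138-5p alone, beside 22.8% of all 289 entries at that floor. Like miR-944, miR-34c-5p was listed at 0 in both libraries.

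In the skin wound and psoriasis list, 7 of the 10 members in the table reached 50 normalized reads and 1 of them was at least 2-fold apart, again beside 20.1% of all entries. This was miR-483-3p, 26.9-fold higher in UM-SCC6-M on 433 reads against 14. The median of the 7 members was 0.24, and miR-31-5p was the fourth most abundant after miR-21-5p, miR-146a-5p and miR-155-5p. In the oral carcinoma list 8 of 12 members reached the floor and 0 were at least 2-fold apart, where all entries gave 20.1%, with a median of -0.07 over 9 members at 10 or more normalized reads. miR-146a-5p was 1.24-fold higher and miR-155-5p 1.18-fold higher. The sign of this last median changed under scaling to total reads, to 0.17, as did that of all 289 entries, also to 0.17. The other list medians kept their sign there, at -0.15, -0.27 and 0.48.

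**Figure D5:**
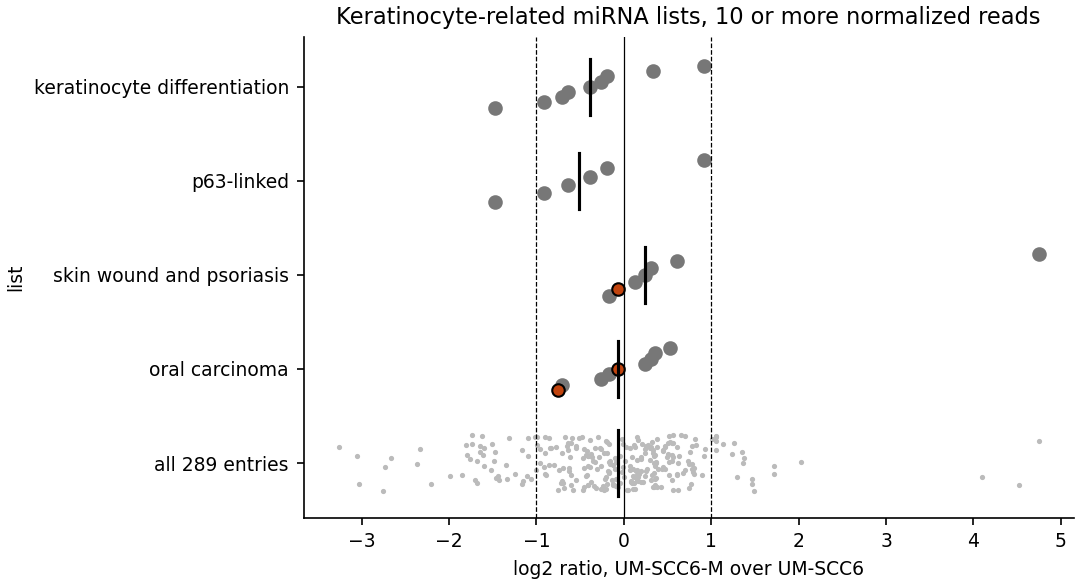
Log2 ratio of UM-SCC6-M over UM-SCC6 for the members of 4 overlapping lists and for all 289 entries at 10 or more normalized reads; black bars are medians, dashed lines mark 2-fold, and miR-31-5p and miR-31-3p are in red. miR-31-5p lies near 0, and miR-31-3p is the lowest of the oral carcinoma list at -0.76.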

How the data were processed

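The input of each library was 3 µg of total RNA, followed by adapter ligation and a gel cut of 140 to 160 bp, per the labels' protocols. The submitters' processing notes name Bowtie, without a version. Not given in the sources used here are the build, the miRNA database, the counting and the scaling tool. The authors deposited 1 table of 1213 entries with 1 column of scaled read signal per library, called normalized reads here. The deposited log2 fold change, p-value and q-value columns are the authors' own comparison, per the file headers, and were only copied or used to recover reads.

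Listed values were whole multiples of 0.119 (UM-SCC6-M) and 0.133 (parental), within 0.00035 reads, and values under 1 were listed as 0. Dividing by these steps gave reads. Where 1 library was listed as 0, the deposited fold change gave its reads for 96 of 99 entries, and 0 was taken for the other 3. Ratios had 0.5 reads added, with exact binomial intervals. With 1 library per group no test was made, and entries at least 2-fold apart with 50 or more normalized reads in the higher library were called. The miRNAs and lists were chosen with earlier results of these data known.

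Names followed a rule: the 5 miRNAs, other products of their hairpins and of MIR203B, the 4 most abundant members of each list by value where described and any past the size rule, and the 3 nearest entries in level. The planned trimmed mean of M-values was computed directly from recovered reads. Simulated libraries held counting error alone, with 4-fold changes in 200 of 558 entries. Of the changed entries, 65 lay above the floor and 65 of 65 were recovered, which counting error at that depth could hardly prevent. Spread between cultures was not simulated, so the rule was checked as code alone. Alternatives were 4 other scalings, 5 reads added, the deposited fold changes, floors of 10, 200 or none, and 1.5-fold. Positions came from GENCODE release 29 and RefSeq GRCh38.p14 by name. Python 3.11.15, numpy 2.4.6, pandas 2.3.3, scipy 1.17.1 and matplotlib 3.10.9 were used.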

Additional observations from a re-analysis of the deposited data

How the results depend on the processing

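Among the squamous miRNAs, miR-31-5p was the one whose log2 ratio left its counting interval under an alternative, at 0.17 under scaling to total reads. The ratios of miR-31-3p, miR-203a-3p and miR-944 kept their sign and stayed within their intervals under every scaling, with 5 reads added and with the deposited fold changes. That of miR-944 was 1.07 for 3 and 1 reads and 1.22 for 6 and 2 reads, an alternative added after seeing the data. The arm difference of miR-31 was 0.66 with 5 reads added. The count of entries at least 2-fold apart, 36 at the floor of 50 normalized reads, was 66 at a floor of 10, 21 at 200, 172 without a floor and 78 at a threshold of 1.5-fold. None of the 5 miRNAs was among them except miR-203a-3p without a floor. miR-944 and miR-184 did not enter the count without a floor, since their reads were not settled. Either possible pair of miR-944 would put it past 2-fold there. Scaling to total reads gave 22 higher and 20 lower, against 13 and 23. Leaving miR-21-5p out of the total raised the shares, in rpm, of miR-31-5p to 189 in UM-SCC6-M and 161 in the parental library, of miR-31-3p to 15.1 and 20.9, and of miR-203a-3p to 5.53 and 1.52, since that total holds fewer reads. No paired analysis was possible because each group has 1 library. Depth limits miR-203a-3p, miR-944 and miR-184, whose values rest on 23 reads or fewer.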

Other observations

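Entries whose mature sequence lies within 2 Mb of a squamous miRNA were read as values, and the window was chosen after the data were seen. RefSeq gave positions for 1037 of the 1213 entries, so the search covers those alone. Near MIR31 on chromosome 9, miR-4473 had 37 reads in UM-SCC6-M and 91 in the parental library, a log2 ratio of -1.44 (-2.05 to -0.89). miR-491-5p, also on chromosome 9, had 30 reads against 14, and its interval of -0.01 to 1.97 included 0. miR-491-3p and miR-4474-3p were listed at 0 in both libraries. Near MIR944 on chromosome 3 it found miR-28-3p, from an intron of LPP, with 13945 reads in UM-SCC6-M and 6040 in the parental library (log2 ratio 1.05, interval 1.01 to 1.10). miR-28-5p, the other arm, had 397 reads against 257. Near MIR203A, apart from miR-203b-5p, it found miR-6765-5p, listed at 0 in both libraries, and near MIR184 it found no entry.

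In the skin wound and psoriasis list, miR-135b-5p lay below the floor of 50 normalized reads and had 9 reads in UM-SCC6-M against 52 in the parental library. This was 6.15-fold lower, with a counting interval of 3.14 to 14.8, and it is named after its values were seen.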
